A study of Mus musculus with 5 samples.

Results

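The comparison described here sets macrophages grown from the bone marrow of C3H/HeJ mice, after 7 h of lipopolysaccharide (LPS), against macrophages of the same strain without LPS (0 h). It uses 2 of the 5 arrays of an LPS time course, 1 for each condition. The 7 h cells had received LPS of S. minnesota at 10 µg per ml; the 0 h cells had received none. Both had been grown from bone marrow with human colony stimulating factor-1 (CSF-1), which drives monocyte precursors to become macrophages, and both were hybridised on 2-colour cDNA arrays against total RNA of whole C57BL6/J embryos of 17.5 days. The labels give neither the number nor the age of the mice. With 1 array per condition there is no replicate check, and no test of any difference was run.

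LPS, a glycolipid of the outer membrane of Gram-negative bacteria, is recognised on macrophages by the receptor TLR4 with its partners MD-2 and CD14. In responsive cells the receptor signals through MyD88 to NF-kB and MAP kinases, which switch on immediate early genes, cytokines and chemokines, and through TRIF to IRF3 and type I interferon, whose later targets include antiviral proteins, guanylate-binding proteins and the immunoproteasome. C3H/HeJ mice carry a mutation in Tlr4 that leaves them hyporesponsive to LPS. A comparison at 7 h in this strain therefore addresses what is measured at a time when secondary, interferon-dependent genes are usually high in responsive macrophages.

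Each probe value is a deposited log ratio of macrophage against embryo RNA. The median of each array, over the 19395 probes with a value on both, was subtracted, and the difference, 7 h minus 0 h, was averaged over the probes of a gene. The base of the logarithm and which RNA is the numerator are not stated. The values were read as base 10, where 2-fold is 0.301, and the numerator was taken as macrophage, because macrophage genes lay above embryo genes: the median centred level of 10 macrophage identity genes was 0.81 at 0 h and 0.82 at 7 h, and that of 8 embryo genes was -1.11 and -0.83. Lyz2, the lysozyme of myeloid cells, stood at 1.10 at 0 h and 1.31 at 7 h. Cd68 (-0.18 and -0.22) and Tyrobp (-0.08 and -0.29), which also belong to macrophages, were below 0 on both arrays. Every sign below rests on that direction. In total RNA of a culture, a change in the share of cells and a change in RNA per cell cannot be told apart.

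Of 8942 measured genes, 335 were higher at 7 h by at least 2-fold (3.75% of genes) and 197 lower (2.20%). The median over all genes was 0.03, the quartiles were -0.04 and 0.11, and 61.8% of genes were above 0. Higher genes made up 63.0% of the genes past 2-fold, but 47.1% without centring, 44.0% after quantile normalization, 43.4% with a loess trend on the mean ratio removed and 50% with a running median along the probe numbers removed. Most genes past 2-fold rested on a lone probe: 254 of those higher and 178 of those lower. The SD between probes of a gene, pooled over the 3203 genes with at least 2 probes, was 0.160. It is the only error these arrays give, and it holds no spread between cultures or hybridisations.

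**Figure D1:**
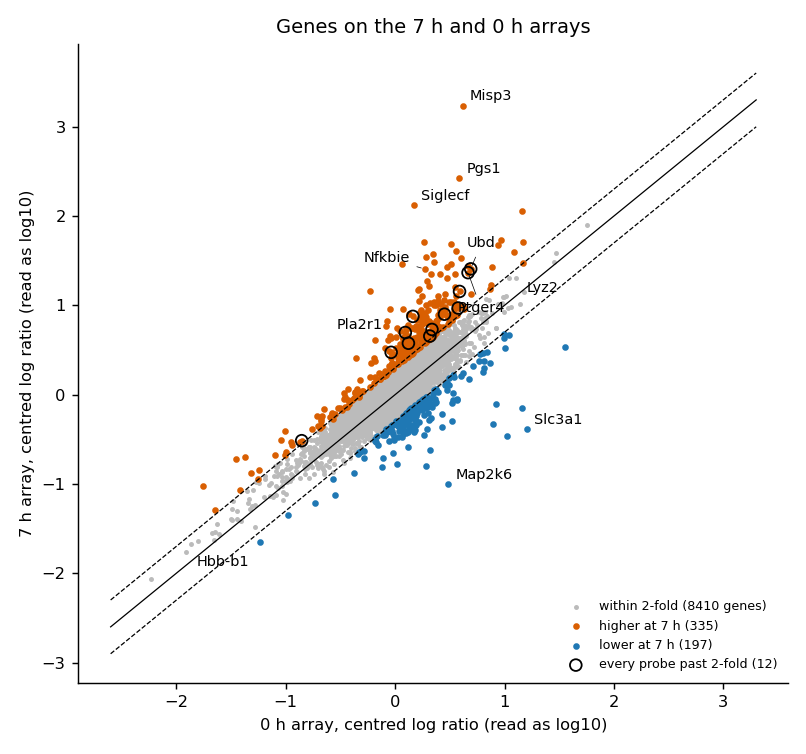
Centred log ratio of each gene on the 0 h array (x) and the 7 h array (y), read as log10 and averaged over probes, with the line of equality and dashed lines at 2-fold. The 335 genes higher at 7 h are orange, the 197 lower are blue, and circles mark the 12 genes with every one of at least 2 probes past 2-fold, all above the upper dashed line.

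The differences followed the probe number, which stands for a probe's place in the deposited table. Neighbouring probes had differences that correlated at 0.25 (Pearson, across probes, which are not replicates), probes 20 apart at 0.16 and probes 400 apart at 0.11. Probes 7601 to 10400 made up 14.0% of the probes and held 37.7% of those higher by 2-fold: 13.6% of the probes there were higher, against 3.65% elsewhere. Probes 17601 to 19828, none with a gene name, held 38.3% of the probes lower by 2-fold. They are the longest runs of stretches of 400 numbers with at least 7% of probes higher or at least 6% lower, limits chosen after seeing the values, and what lies behind them was not tested. Among the genes named below, all probes of Arg1, Cd3d, Cxcl10, Gins2, Gtpbp2, Ifi35, Ifit1bl2, Limk2, Mapk8, Misp3, Nfkbie, Pcgf1, Psmb9, Ptger4, Rbm34, Selenoi, Sft2d2, Siglecf, Tbxa2r, Tgtp1 and Ubd lie between 7601 and 10400. Some but not all probes of Atg12, B2m, Ccl25, Ccl6, Col3a1, Dhrs3, Fosl2, Lyz2, Mif, Pdia3, Psmb8, Psme1 and Sod2 lie there. Genes with probes in other stretches rich in higher or lower probes are not listed.

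**Figure D2:**
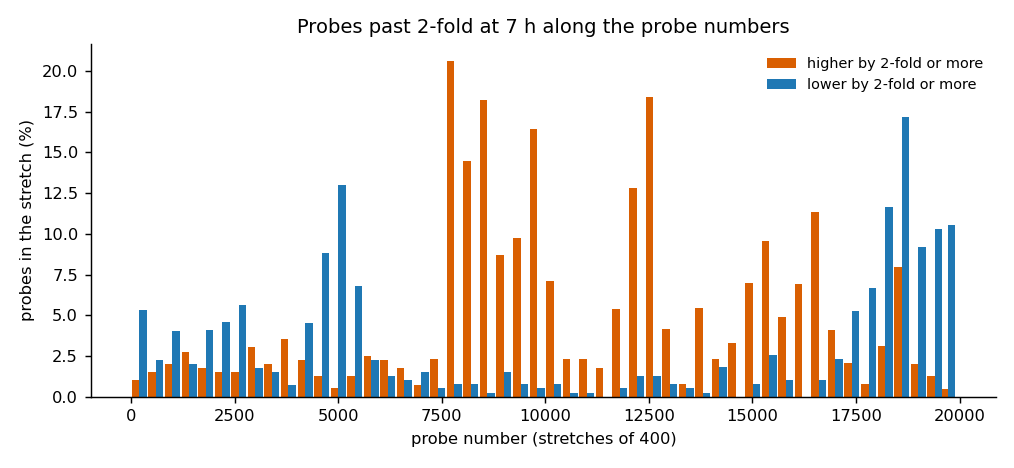
Share of probes (y, percent) that were higher (orange) or lower (blue) at 7 h by at least 2-fold in stretches of 400 probe numbers (x). The share of higher probes is largest in a stretch between 7601 and 10400, and that of lower probes in a stretch from 17601 on; single stretches elsewhere are also high.

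Promoter sequences of 3 genes higher at 7 h were chosen for display because they match short motifs linked to interferon or NF-kB signalling. They are RefSeq sequences of GRCm38.p6 around the gene's start, most of each lying upstream, with motif matches in capitals. Ifit1bl2, a member of the interferon-induced IFIT family, lies at chr19:34640694-34640993 on the minus strand. Ifi35, an interferon-induced leucine zipper protein, lies at chr11:101448162-101448461 on the plus strand, and Ubd, the ubiquitin-like modifier FAT10, at chr17:37193642-37193941 on the plus strand.
Ifit1bl2: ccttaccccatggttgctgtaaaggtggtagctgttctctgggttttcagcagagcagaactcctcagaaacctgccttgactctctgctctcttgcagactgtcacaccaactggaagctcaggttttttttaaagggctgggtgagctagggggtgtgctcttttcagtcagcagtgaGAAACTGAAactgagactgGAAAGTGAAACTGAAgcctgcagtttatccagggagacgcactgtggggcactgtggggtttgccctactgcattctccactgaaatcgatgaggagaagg
Ifi35: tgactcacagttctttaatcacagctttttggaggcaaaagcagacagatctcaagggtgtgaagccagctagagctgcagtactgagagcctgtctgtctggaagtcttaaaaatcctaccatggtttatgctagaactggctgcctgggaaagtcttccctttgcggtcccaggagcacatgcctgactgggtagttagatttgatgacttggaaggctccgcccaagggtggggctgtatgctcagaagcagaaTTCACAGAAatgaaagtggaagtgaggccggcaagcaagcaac
Ubd: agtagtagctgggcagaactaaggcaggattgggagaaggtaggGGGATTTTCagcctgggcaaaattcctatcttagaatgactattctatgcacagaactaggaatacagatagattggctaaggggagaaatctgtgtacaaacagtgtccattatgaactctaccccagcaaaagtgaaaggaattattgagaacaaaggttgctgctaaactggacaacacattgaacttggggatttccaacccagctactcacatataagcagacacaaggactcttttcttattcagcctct
In Ifit1bl2 the capitals are 3 matches to GAAANNGAA, the core of the interferon-stimulated response element, of which the last pair overlap. In Ifi35 they mark 1 match to TTCNNNGAA, the core of the STAT-binding GAS element. In Ubd they mark 1 match to GGGANNTTC, a short string that covers only some forms of the NF-kB site. Other forms, such as ggggatttcc further along in Ubd, were not searched and stay in lower case. Both strands were searched. Among the 32851 promoters searched, which do not cover every chromosome, 8.56% hold the first motif, 8.30% the second and 3.94% the third. Of 31 interferon-stimulated genes with a promoter entry, 13 hold the first motif, and their median difference at 7 h was 0.05, against 0.11 for the 18 without. Of 11 matched genes with every probe past 2-fold, the first motif was found in 2 (Dhrs3 and Ifit1bl2), the second in Limk2 and the third in 2 (Dhrs3 and Ubd). The promoter entries of Psmb9, Psme2, Nfkbie and Ptger4, which were also higher at 7 h, hold none of the 3 motifs as searched. Nor does a second Ifit1bl2 entry at chr19:34629762-34630061. The Nfkbie entry does hold gggggattcc, another form of the NF-kB site that the searched string cannot match. The sequences shown were thus chosen for their matches, and a match describes letters only.

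Among the 3203 genes with at least 2 probes, 12 (0.375%) had every probe higher by 2-fold and 0 had every probe lower. All probes lay above 0 in 34.7% of these genes and below 0 in 10.8%. The 12 hold 26 probes, of which 19 lie between 7601 and 10400; in 8 genes all probes do. Epha4, Hapln1 and Pla2r1 have no probe there and Dhrs3 has 1.

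Ubd gave the largest difference of the 12, 0.72 ± 0.07 (SD over 2 probes), which is 5.22-fold on the base 10 reading. FAT10 tags proteins for the proteasome and is a known target of interferon-gamma and TNF. Its probes read 0.76 and 0.63 at 0 h and 1.42 and 1.39 at 7 h. At 2 h the probe with a value read 1.38, and at 21 h both were below 0, at -0.09 and -0.15. The probes are 49 numbers apart, at 8449 and 8498. Ptger4, the prostaglandin E2 receptor EP4, differed by 0.70 ± 0.41 (SD over 3 probes). Its probes stood at 0.82, 0.60 and 0.58 at 0 h and at 1.99, 1.05 and 1.06 at 7 h, so the lowest at 7 h was above the highest at 0 h. All lie between 8251 and 8502. Ifit1bl2 differed by 0.45 ± 0.15 (SD over 3 probes), from 0.41, 0.42 and 0.52 to 1.03, 0.82 and 0.85. These genes were picked for a 2-fold difference on every probe, so the gap between their arrays describes that choice.

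The 3 genes outside that stretch were of other kinds. Pla2r1, a receptor for secreted phospholipase A2, differed by 0.60 ± 0.33 (SD over 2 probes): one probe went from 0.27 to 0.64 and the other from -0.08 to 0.75. Epha4, an ephrin receptor tyrosine kinase, differed by 0.51 ± 0.23 (2 probes), from -0.10 and 0.03 to 0.25 and 0.70. It read -0.21 at 2 h and 0.01 at 21 h, so that the 7 h array stood above those at 0, 2 and 21 h. The 0.5 h value of Epha4 is not given here. Hapln1, a link protein of cartilage matrix, remained below the embryo level, with probes at -1.16 and -0.55 at 0 h and -0.79 and -0.24 at 7 h. Its difference was 0.34 ± 0.04.

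The remaining genes of the 12 have unrelated functions. The Polycomb subunit gene Pcgf1 differed by 0.71 ± 0.57 (2 probes), a spread near the size of the difference, with probes that went from 0.24 to 1.36 and from 0.08 to 0.39. Rbm34, an RNA-binding protein, differed by 0.57, but its probes are neighbours (8446 and 8447). Limk2, a kinase that phosphorylates cofilin, differed by 0.45 ± 0.16, Sft2d2, a vesicle transport protein, by 0.39 ± 0.11, and the GTP-binding protein gene Gtpbp2 by 0.39 ± 0.02. Dhrs3, which reduces retinal to retinol, differed by 0.34 ± 0.01, with probes at 3069 and 8805 that went from 0.14 to 0.47 and from 0.50 to 0.85. Across the alternatives of processing Ubd stayed between 0.39 and 0.76, Ptger4 between 0.39 and 1.17, Pla2r1 between 0.37 and 0.61 and Epha4 between 0.42 and 0.67. The lowest values of Limk2, Pcgf1 and Rbm34 were 0.34, 0.59 and 0.33. The others fell inside 2-fold under some alternatives. Their lowest values were 0.19 for Sft2d2, 0.24 for Dhrs3, 0.26 for Hapln1, 0.27 for Gtpbp2 and 0.29 for Ifit1bl2.

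**Figure D3:**
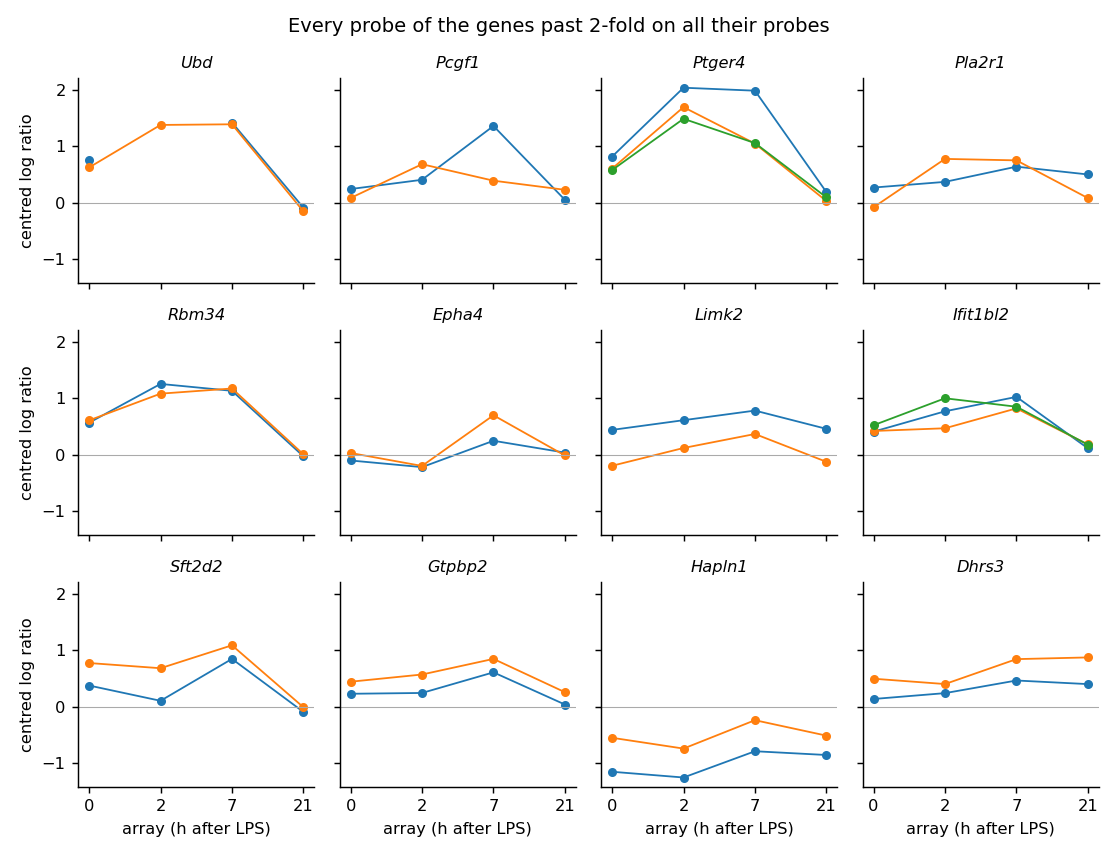
Centred log ratio (y) of each probe of the 12 genes with every probe past 2-fold, on the 0, 2, 7 and 21 h arrays (x); each line is 1 probe and gaps are missing values. Every probe is higher at 7 h than at 0 h, and the probes of Ubd, Ptger4 and Ifit1bl2 are lower at 21 h than at 0 h.

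A different reading sets each probe against the probes within 200 numbers of it. Every probe stood at least 2 local SDs above its neighbours in 6 genes (0.187%): Epha4, Hapln1, Myof, Pla2r1, Rbm34 and Ubd. Myof, a ferlin of membrane repair, differed by 0.35. No gene had every probe 2 local SDs below, and none had every probe 3 local SDs away in either direction. Ptger4 and Ifit1bl2 are not among the 6.

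Of 35 measured interferon-stimulated genes, 5 were higher by 2-fold and 1 lower (3.75% and 2.20% over all genes), and 24 were above 0. The median was 0.09, against 0.03 over all genes; relative to all genes it ranged from -0.04 to 0.07 over the alternatives of processing, so its direction depends on the scaling. Irf5, a transcription factor downstream of TLRs, went from 0.51 to 1.04 on 1 probe. Psmb9, a catalytic subunit of the immunoproteasome, differed by 0.43 ± 0.26 (SD over 2 probes), from 0.55 and 0.84 to 0.79 and 1.46. Gbp2, a guanylate-binding protein, went from 0.62 to 0.99 on 1 probe, and Ifi35 differed by 0.34 ± 0.07, from 0.46 and 0.16 to 0.75 and 0.55. Tgtp1, a GTPase induced by interferon-gamma, differed by 0.30, but by -0.20 after quantile normalization and -0.15 with the loess trend removed. In the same order these settings gave 0.15 and 0.16 for Gbp2, 0.16 and 0.16 for Psmb9 and 0.26 and 0.25 for Ifi35, all inside 2-fold. Irf5 stayed past 2-fold, at 0.34 and 0.32.

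Among antiviral members, Eif2ak2, the RNA-dependent kinase PKR, was lower by 2-fold, at -0.34 ± 0.42 (SD over 2 probes): one probe went from 0.65 to 0.01 and the other from 0.43 to 0.39. Rsad2, or viperin, differed by -0.06 ± 0.07, Ifit1 by 0.12 ± 0.07 and Irf7 by 0.08 ± 0.04, each on 2 probes. Cxcl10, the interferon-induced chemokine, differed by 0.02 and Stat2 by 0.23, each on 1 probe. Igtp, an immunity-related GTPase, was below 0 on both probes, at -0.19 ± 0.09. Among antigen presentation genes, B2m, the light chain of MHC class I, differed by 0.20 ± 0.08 with its 3 probes above 0, and Psmb8 by 0.20 ± 0.27 over 7 probes that ranged from -0.07 to 0.62. Of 15 MHC genes, Psmb9 was the 1 past 2-fold, beside 3.75% of all genes higher and 2.20% lower, and the list median was 0.09.

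The proteasome, the protease that degrades ubiquitin-tagged proteins, had 5 of 46 measured genes higher by 2-fold and 0 lower, beside 3.75% and 2.20% of all genes. Of the 46, 38 were above 0 (82.6%, against 61.8% of all genes), and the median was 0.10. Relative to the median of all genes it stayed between 0.056 and 0.079 under every alternative run. This was not particular to the proteasome. The median of the embryo markers stayed between 0.089 and 0.171 above that of all genes, and that of the unfolded protein response between 0.027 and 0.070. Psmd13, a lid subunit, went from 0.35 to 1.49 on 1 probe. Psme2, a subunit of the interferon-inducible activator PA28, differed by 0.66 ± 0.59 (SD over 2 probes): one probe went from 0.55 to 1.62, the other from 0.23 to 0.47. Its partner Psme1 differed by 0.01 ± 0.05 over 2 probes. The core subunit genes Psma1 and Psmb6 differed by 0.35 and 0.34 on 1 probe each, Psmb6 from -0.69 to -0.35. Among proteasome genes with at least 2 probes, 12 had all probes above 0 and 3 all below.

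**Figure D4:**
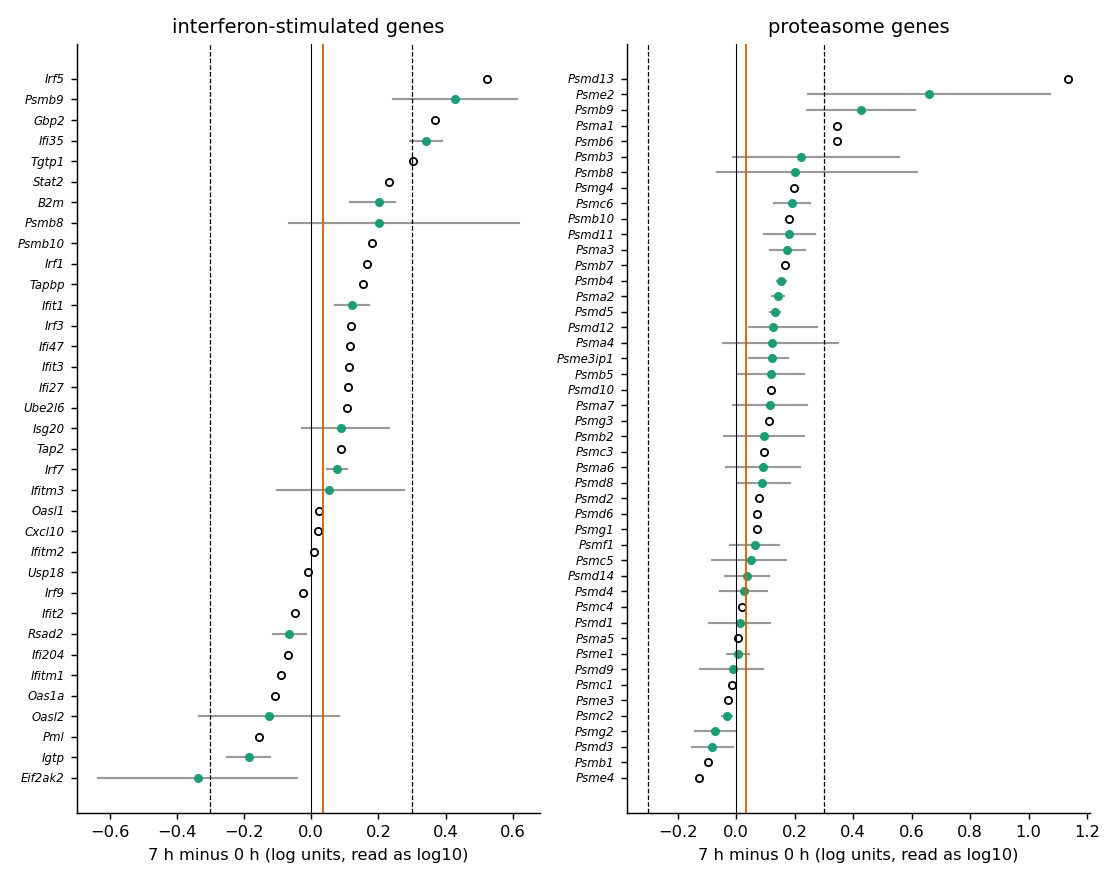
Difference, 7 h minus 0 h, in log units read as log10 (x) for each of 35 interferon-stimulated genes (left) and 46 proteasome genes (right). Filled points are means over at least 2 probes with grey lines from the lowest to the highest probe, open points are genes with 1 probe, dashed lines mark 2-fold and the orange line the all-gene median of 0.03. Of the proteasome genes 38 lie above 0.

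Of 31 listed genes of LPS and TLR recognition 7 were measured, and Tlr4, Ly96 (MD-2), Cd14 and Myd88 were not among them. Of the 7, 0 were past 2-fold, and their median was -0.08. Tlr2, the receptor for bacterial lipoproteins, differed by -0.10, Ly86, which encodes MD-1, by -0.10, and the kinase adaptors Tab1 and Tab2 by -0.12 and 0.15. Of 11 genes of the NF-kB pathway 2 were higher, beside 3.75% of all genes. Nfkbie, the inhibitor IkB-epsilon and itself an NF-kB target, went from 0.27 to 1.41 on 1 probe (9676), and its range over the alternatives was 0.90 to 1.16. Tbk1, the kinase that phosphorylates IRF3, went from 0.06 to 0.47 on 1 probe. Nfkbia, the inhibitor IkB-alpha, read 0.30 on both arrays, and Birc3 differed by -0.20.

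Immediate early genes, which peak soon after a stimulus, had 1 of 21 members past 2-fold, Klf4 at 0.31 on 1 probe. Over all genes 3.75% were higher and 2.20% lower. Fosl2 differed by 0.30 ± 0.07 (SD over 2 probes), just inside the 2-fold limit. Ier2 differed by -0.21, Egr2 by -0.17, Fos by -0.09 and Jun by 0.00 ± 0.09 over 3 probes. The list median was -0.01; relative to that of all genes it ranged from -0.087 to -0.034 over the alternatives. At 2 h, where the difference uses the same 0 h array, Egr2 had read 0.98 and Ier2 0.71, against 0.13 and -0.08 at 7 h.

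Of 23 cytokine and chemokine genes 1 was higher and 1 lower, beside 3.75% and 2.20% of all genes. Ccl25, a chemokine of thymus and gut, differed by 0.34 ± 0.14 with all 5 probes above 0, all between 7594 and 8508. Ccl9, a CC chemokine of myeloid cells, went from 0.99 to 0.68 on 1 probe. Ccl6 differed by 0.22 ± 0.23 with its 7 probes above 0, of which 6 lie between 8226 and 8481. Mif differed by 0.17 ± 0.13 over 3 probes and Ccl5 by -0.04. Of 23 inducible effectors 2 were higher, the adhesion molecule Vcam1 (0.38) and the arginase Arg1 (0.34), and Plaur, the urokinase receptor, was lower (-0.34), each on 1 probe. Sod2 differed by 0.06, Saa3 by -0.21 and Marco by 0.04.

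Besides Ptger4, the prostanoid genes included Tbxa2r, the thromboxane receptor, which differed by 0.44 from 0.56 at 0 h on 1 probe (9223). Thus 2 of 15 were higher, beside 3.75% of all genes. Ptgs2, the inducible cyclooxygenase, differed by -0.14 and Pla2g2d, a secreted phospholipase, by -0.26. Among 14 Fc receptor and adaptor genes, 2 were higher. Siglecf, a sialic acid-binding receptor, went from 0.17 to 2.12 on 1 probe (7755), while the 2 h and 21 h arrays read -0.30 and -0.07. Fcgr1, the high-affinity IgG receptor, went from 1.17 to 1.71 on 1 probe, but after quantile normalization its difference was -0.03. In the complement list Fcna was higher (0.38) and C1s1 lower (-0.49), each on 1 probe.

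Among signalling genes, Mapk8, which encodes the kinase JNK1, went from 0.01 to 0.64 on 1 probe (8544). Map2k6, the p38 kinase activator, differed by -1.49 on 1 probe, with no value at 2 h. Map2k2 differed by -0.39 ± 0.78, a spread over its 2 probes wider than the difference, and Map3k3 by -0.30 on 1 probe, so that 1 of 32 MAP kinase genes was higher and 3 lower, beside 3.75% and 2.20% of all genes. Ptpn11, the phosphatase SHP-2, differed by 0.38 ± 0.41 (2 probes) and was the 1 of 16 JAK-STAT genes past 2-fold. P2ry13, a receptor for ADP, went from 0.29 to 1.27 on 1 probe (7596).

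In large families of cell maintenance more genes were above 0 than below, as in all genes, of which 61.8% were above 0 (48.2% without centring). Of 70 cytosolic ribosomal protein genes 63 were above 0 (90.0%), with 0 past 2-fold and a median of 0.05. Of 52 heat shock and chaperone genes 45 were above 0 (86.5%), with a median of 0.08. Of these 52, Hspb2 (0.35) and Hspb3 (0.31) were higher by 2-fold, beside 3.75% of all genes. Of 28 genes of the unfolded protein response 23 were above 0, and Pdia3, a disulfide isomerase that loads MHC class I, differed by 0.28 ± 0.04 (SD over 3 probes). Of 93 respiratory chain and ATP synthase genes 72 were above 0, with 0 past 2-fold and a median of 0.07. The medians relative to all genes ranged from 0.009 to 0.026 for ribosomal proteins and from 0.031 to 0.046 for chaperones over the alternatives.

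In the cell cycle list 3 of 90 genes were higher, a share near the 3.75% of all genes: Gins2, a subunit of the replicative helicase, at 0.36 ± 0.11 (SD over 2 probes, 9178 and 9239), and Birc5 (0.32) and Prc1 (0.31), of the mitotic spindle, on 1 probe each. Glycolysis had 0 of 24 genes past 2-fold and a median of 0.02. Of 31 genes of lipid uptake, storage and efflux 0 were past 2-fold and 26 were above 0. Atg12, a conjugating protein of autophagy, differed by 0.35 ± 0.08 with probes that went from -0.67 to -0.26 and from -0.34 to -0.05. Of 141 solute carrier genes 10 were higher and 5 lower, beside 3.75% and 2.20% of all genes. Among other families, the lysosomal Galc (0.54), the actin-nucleating Arpc4 (0.52) and the sterol hydroxylase Cyp27a1 (0.67) were higher, each on 1 probe.

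**Figure D5:**
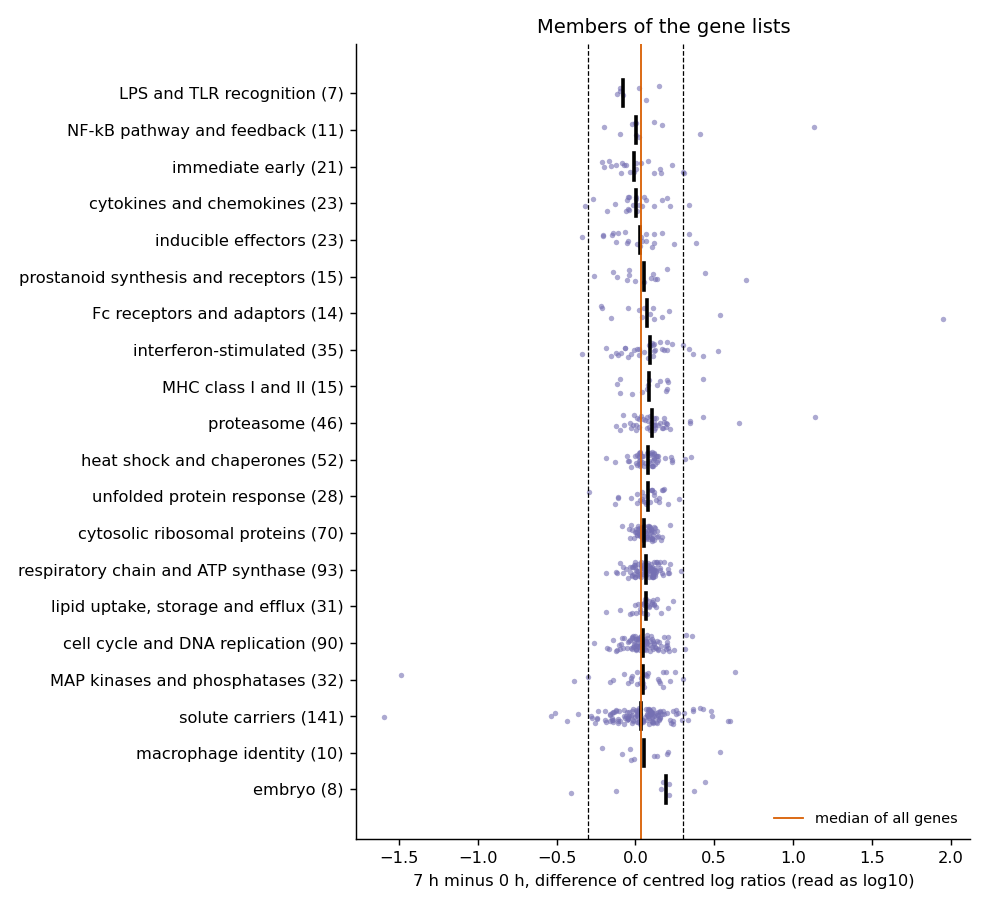
Difference, 7 h minus 0 h, in log units read as log10 (x) of each measured member (points) of 20 gene lists, with the number measured in brackets; black bars are list medians, the orange line is the all-gene median of 0.03 and dashed lines mark 2-fold. The list medians run from -0.08 for LPS and TLR recognition to 0.19 for embryo genes.

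No gene with at least 2 probes was lower by 2-fold on all of them. The 15 genes lowest by their smallest probe included the testis kinase gene Tssk2 (-0.32 ± 0.06), the survival motor neuron complex gene Gemin4 (-0.28 ± 0.04), the hypoxia-inducible factor gene Epas1 (-0.23 ± 0.01) and the RNA-binding protein gene Igf2bp1 (-0.24 ± 0.06), each an SD over 2 probes. Tssk2 went from 0.15 and 0.13 to -0.21 and -0.14. Ranking by the smallest probe favours genes whose probes lie close together, so these SDs over 2 probes describe that choice and not precision. Of the 30 probes of these 15 genes, 20 had no value on the 0.5 h array, as against 5.50% of all probes; of the 32 probes of the 15 leading higher genes, 0 lacked one. Over all 1066 probes with no value at 0.5 h, the median difference was -0.10 and 16.6% were lower by 2-fold. Of 199 genes named for RIKEN clones that begin with 1700, a prefix of testis libraries, 28 were lower and 2 higher, beside 2.20% and 3.75% of all genes, with a median of -0.07. These groups were chosen after their values were seen, and what lies behind them was not tested.

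The largest differences of all were on lone probes. Misp3 differed by 2.61, Siglecf by 1.95, Pgs1, a cardiolipin synthesis enzyme, by 1.83 and Selenoi by 1.40. The probe of Misp3 (9111) read 0.62 at 0 h and 3.23 at 7 h, with 1.54 on the 2 h array and -0.25 on the 21 h array. Among the lowest, Slc3a1, a subunit of the cystine transporter, differed by -1.59, Vezf1 by -1.48, Espn by -1.31 and Add1 by -1.02. In these genes the 0 h array stood apart: it read 1.21 for Slc3a1 and -0.39 at 7 h, -0.52 at 2 h and -0.49 at 21 h. Vezf1 read 1.02 at 0 h and -0.46, -0.71 and -0.51 at 7, 2 and 21 h. Map2k6, in contrast, read 0.49 at 0 h and 0.57 at 21 h, with the 7 h array apart.

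Markers of other cells and of the embryo reference were read in the same way. Of 8 embryo genes, Afp (0.44 ± 0.42, SD over 2 probes) and Krt5 (0.37) were higher and Col2a1 lower (-0.41), with a median of 0.19. Over all genes 3.75% were higher and 2.20% lower. Of 7 fibroblast genes 1 was lower, Col3a1 at -0.32 ± 0.16 over 3 probes, and the median was 0.00. Of 8 erythroid genes 1 was lower, Hbb-y at -0.33 ± 0.43 over 5 probes, and the median was 0.05. Neutrophil genes had a median of 0.04 over 6 and T and NK cell genes of -0.02 over 5, where Cd3d, of the T cell receptor complex, was higher (0.56, probe 7892). B cell (0.01), mast cell (0.09) and dendritic cell (-0.02) genes had 3 measured members each and none past 2-fold. Their part in the differences above was not tested.

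The differences at 2, 7 and 21 h share the 0 h array, so their values are set side by side and not compared. The 0.5 h array is left out. Against the 0 h array 544 of 8884 genes (6.12%) were higher and 231 (2.60%) lower at 2 h, and 462 of 8899 (5.19%) higher and 379 (4.26%) lower at 21 h. In the order 0, 2, 7 and 21 h, Psmb9 read 0.70, 1.13, 1.12 and 0.33. In that order Gbp2 read 0.62, 1.02, 0.99 and 0.33, Rbm34 0.59, 1.17, 1.16 and -0.01, and Nfkbie 0.27, 0.83, 1.41 and 0.05. Dhrs3 read 0.32, 0.32, 0.66 and 0.64. The median difference of the interferon-stimulated list was 0.06, 0.09 and 0.00 at 2, 7 and 21 h, and that of the proteasome -0.02, 0.10 and 0.03. LPS and TLR recognition gave 0.05, -0.08 and 0.21. The medians over all genes at 2 and 21 h are not given here, so a shift shared by all genes is not set apart from these values.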

How the data were processed

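Macrophage RNA was measured on 2-colour cDNA arrays against a whole-embryo reference, 1 array per time. The deposited table holds 1 log ratio per probe and array, read as log10. Labelling was indirect, with Cy3, per the labels' protocols; scanner, background correction, normalization, log base and numerator are each not given in the sources used here. Signal over background is thus unknown. The number of arrays limits the precision. The deposited medians were 0.04 at 0 h and 0.00 at 7 h, with 180 and 257 missing values; over the probes with a value on both arrays the SD was 0.325 and 0.347.

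Of 19828 probes, 14759 had 1 gene symbol, 170 several and 4899 none; symbols were updated through Entrez identifiers in RefSeq of GRCm38.p6 (14628 matched). Probes with 1 symbol and a value on both arrays were centred, differenced and averaged per gene, giving 8942 genes. The members and lists were chosen with earlier results of these data known. Named genes were the 15 in each direction with the largest smallest-probe difference among genes whose 2 or more probes had one sign, the 10 largest on 1 probe, and list members past 2-fold, otherwise the highest and lowest; examples are printed, and further list members, families and markers were named after their values were seen. Alternatives varied centring, scaling, trend removal, joining of probes, missing values, size rule and log base. The steps were tested on simulated arrays with known differences and independent noise. That noise does not follow the probe number, so the check does not cover the dependence described above. Figures were drawn with matplotlib 3.10.9; values came from pandas 2.3.3 and numpy 2.4.6 under Python 3.11.15, and the loess fit from statsmodels 0.14.6.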

Additional observations from a re-analysis of the deposited data

How the results depend on the processing

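Counts of genes past 2-fold moved by over 1.5 times under several settings; the cause was not tested except where the setting changes the rule itself. Genes higher numbered 208 after quantile normalization, 205 with the loess trend on the mean ratio removed, 218 with a running median over 400 probe numbers removed and 545 with the probe of highest mean ratio. Genes lower numbered 117 over probes with a value on all 5 arrays. At 1.5-fold there were 1086 higher and 600 lower, at 3-fold 123 and 53, and read as log2 14 and 8. Genes with every probe higher, 12 as reported, numbered 7 without centring, 3 after quantile normalization, 3 with the loess trend removed, 6 with the running median removed, 75 at 1.5-fold, 2 at 3-fold and 0 read as log2. Genes with every probe lower, 0 as reported, numbered 1, 3 and 2 under the first 3 of these and 16 at 1.5-fold. Chosen after seeing the data, leaving out probes 7601 to 10400 gave 4 genes with every probe higher, and at least 2 local SDs gave 6. The direction reversed for Fcgr1 (-0.029) and Tgtp1 (-0.20) after quantile normalization, for Tgtp1 (-0.15) with the loess trend removed and for Hbb-y (0.030) with the probe of highest mean ratio. The other named genes past 2-fold kept their direction under the alternatives that gave them a value. Of the comparisons of a list median with its value under an alternative, 457 differed by less than the pooled probe SD over the root of the members' number and 153 by more. No paired analysis was possible because each group held 1 array.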

Other observations

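Probes with no single gene symbol lie outside the comparison of genes. Of 4943 such probes with a value on both arrays, 239 (4.84%) were higher at 7 h by 2-fold and 304 (6.15%) lower; of the named probes, 739 (5.11%) were higher and 314 (2.17%) lower. The unnamed probes include all 2162 numbered 17601 to 19828, where 237 (11.0%) were lower, against 2.21% of probes elsewhere.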
